A study of Mus musculus with 96 samples.

Results

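RING1B, also called RNF2, is the E3 ligase of the Polycomb repressive complex PRC1, and in mouse embryonic stem cells (ESCs) it is best known at CpG-rich promoters that also carry H3K4me3, the histone mark of promoters poised or active in transcription. The regions described here are the RING1B peaks of the control ESC line shEV that shared no base with a peak of H3K4me3 in Rybp+/+ ESCs. They were selected on these 2 peak lists, and 990 of the 14408 RING1B peaks (6.87%) met the rule, while the other 13418 shared at least 1 bp with H3K4me3. RING1B was profiled by ChIP-seq in 1 library each of shEV (empty-vector control) and shStat3 (Stat3 knockdown) ESCs of the R1 line. It was also profiled in R1 ESCs with doxycycline (DOX)-inducible Rybp and Stat3 (Tet.Rybp.Stat3), without DOX (DOX-) and with DOX (DOX+), where the authors merged 2 replicates per condition into 1 list. H3K4me3, H3K27ac and WDR5 came from Rybp-floxed ESCs of the R7.15 line, a different line, as Rybp+/+ or as Rybp-/- after 5 µM 4-hydroxytamoxifen for 4 days, each list from 2 merged replicates. STAT3 was profiled in 1 library of each of these genotypes and in Tet.Rybp.Stat3. RNA-seq had 2 libraries per group, namely shEV and shRybp (Rybp knockdown), Rybp+/+ and Rybp-/-, and the line rTRS, labelled with the same genotype as Tet.Rybp.Stat3, untreated (NTC) or with DOX. Each knockdown and inducible line is a single line, and each RING1B condition is represented by 1 list, so differences between RING1B lists had no replicate check.

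PRC1 acts through several complexes. Those with RYBP are called variant PRC1, and they silence 2 textbook groups of genes in ESCs, namely regulators of development and genes of the germline and meiosis. PCGF6-containing PRC1.6 reaches germline promoters through DNA-binding subunits, among them the MAX-MGA pair, which reads the E-box CACGTG and a T-box site, and E2F6. H3K27ac marks active enhancers and promoters, and WDR5 is a core subunit of the complexes that write H3K4 methylation.

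The regions were of several sequence types, and stretches of the strongest ones are shown for that reason, with CpG dinucleotides in capitals. All are on the plus strand of mm9 (NCBIM37), lie within the 300 bases around the middle of the peak, and leave out annotated exons. The first 3 lie at promoters, namely Prr19 (chr7:26086245-26086377), Spo11 (chr2:172805526-172805597), which encodes the nuclease that cuts DNA in meiosis, and Hormad1 (chr3:95363655-95363844), which encodes a protein of the meiotic chromosome axis.
Prr19: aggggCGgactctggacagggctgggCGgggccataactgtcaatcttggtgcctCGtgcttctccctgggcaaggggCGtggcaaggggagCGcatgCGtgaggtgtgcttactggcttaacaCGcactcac
Spo11: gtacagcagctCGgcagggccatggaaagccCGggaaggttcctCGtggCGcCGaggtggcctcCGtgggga
Hormad1: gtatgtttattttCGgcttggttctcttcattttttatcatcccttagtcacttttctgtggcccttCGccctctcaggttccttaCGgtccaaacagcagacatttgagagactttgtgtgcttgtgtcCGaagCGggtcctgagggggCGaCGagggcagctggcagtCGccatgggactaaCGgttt
They held 7 CpGs in 133 bases, 6 in 72 bases and 9 in 190 bases. The next 2 were CpG-rich stretches far from any gene start, 76278 bp from Syt10 (chr15:89595610-89595909) and 157442 bp from Cacna1e (chr1:156731281-156731580).
Syt10: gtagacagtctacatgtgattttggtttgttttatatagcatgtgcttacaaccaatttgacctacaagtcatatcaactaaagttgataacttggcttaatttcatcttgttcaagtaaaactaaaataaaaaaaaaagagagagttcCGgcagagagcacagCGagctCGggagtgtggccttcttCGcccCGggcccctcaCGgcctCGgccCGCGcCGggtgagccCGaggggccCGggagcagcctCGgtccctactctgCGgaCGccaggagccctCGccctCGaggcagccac
Cacna1e: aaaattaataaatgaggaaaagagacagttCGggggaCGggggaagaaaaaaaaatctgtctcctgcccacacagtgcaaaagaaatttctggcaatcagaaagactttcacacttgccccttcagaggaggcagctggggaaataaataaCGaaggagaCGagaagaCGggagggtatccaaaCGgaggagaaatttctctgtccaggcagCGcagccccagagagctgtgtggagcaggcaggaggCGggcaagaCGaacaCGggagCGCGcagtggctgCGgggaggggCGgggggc
They held 17 and 14 CpGs in 300 bases. The last lay in an intron of Tbx15 (chr3:99064641-99064940), which encodes a T-box transcription factor of limb and skeletal development, and held 1 CpG in 300 bases.
Tbx15: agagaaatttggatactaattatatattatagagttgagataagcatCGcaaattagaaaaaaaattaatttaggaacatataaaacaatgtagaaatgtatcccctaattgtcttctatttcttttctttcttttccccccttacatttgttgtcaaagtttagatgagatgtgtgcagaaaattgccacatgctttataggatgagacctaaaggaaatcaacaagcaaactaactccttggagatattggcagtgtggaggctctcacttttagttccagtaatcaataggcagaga
The peak at Prr19 was a promoter peak with CpGs throughout the stretch, whereas the Tbx15 stretch, in a peak of 3374 bp, was AT-rich at 33.0% GC.

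The 990 peaks were weak and narrow beside the other RING1B peaks. Their median fold enrichment over input, as MACS2 gave it, was 3.88 (interquartile range 3.39 to 4.53, highest 17.7) against 4.92 in the RING1B peaks with H3K4me3, which reached 91.4. Median width was 448.5 bp against 929 bp, and median −log10 q was 2.90 against 6.75. When all shEV peaks were put in 10 classes of equal size by fold enrichment, no peak without H3K4me3 fell in the highest class, which began at 23.3. Median GC content was 53.5% against 61.5%, and the median observed-to-expected CpG ratio was 0.334 against 0.661. By a common definition of a CpG-rich interval (GC of at least 50% and a ratio of at least 0.6), 66 of 990 (6.67%) were CpG-rich against 60.3% of the others, a difference of −53.6 points (95% interval −55.2 to −51.7, Newcombe). Such intervals cover counting error only.

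Most of the peaks lay away from gene starts. An annotated transcription start site (TSS) lay inside 66 (6.67%, Wilson 95% interval 5.27 to 8.39) against 66.1% of the RING1B peaks with H3K4me3. Of the rest, 144 overlapped an exon, 243 lay in introns only and 537 (54.2%) were intergenic, against 14.3% intergenic among the others. The share in exons was 14.5% in both groups. The median distance to the nearest H3K4me3 peak was 6665 bp. Those closest to the rule's limit were named by their nearest protein-coding TSS, as all peaks are here. The peaks near Gm1631, Zfhx3, Kif26a, Snx33 and Tob1 stopped 10, 12, 15, 17 and 18 bp short of H3K4me3. Just outside the rule, the peaks near Csf3r, 4931429L15Rik, Rsph6a, Strc and Rap1b shared 7, 9, 13, 15 and 21 bp with it. The shEV fold enrichment was 2.86 to 6.61 in the first 5 and 3.06 to 4.18 in the second, so the 2 sides of the limit overlapped. A RING1B peak with H3K4me3 lay within 10 kb of 398 (40.2%), and 295 (29.8%) were more than 50 kb from one.

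Whether these peaks were found again in the other RING1B lists was asked first for each list. In the shStat3 list 299 of 990 (30.2%, 27.4 to 33.1) overlapped a peak, in DOX- 454 (45.9%, 42.8 to 49.0) and in DOX+ 382 (38.6%, 35.6 to 41.7). All 3 lists held 206 of them (20.8%, 18.4 to 23.5), and 442 (44.6%) appeared in shEV only. The RING1B peaks with H3K4me3 were found in 77.9%, 91.1% and 79.5% of cases, and 6.55% of them appeared in shEV only. The differences were −47.7 points in shStat3 (95% interval −50.6 to −44.7), −45.2 in DOX- (−48.4 to −42.1) and −40.9 in DOX+ (−43.9 to −37.7). The lists differ in length, with 12017 peaks in shStat3, 17021 in DOX- and 12864 in DOX+. With the 12017 peaks of lowest q from each list, DOX- held 29.1% and DOX+ 35.5%, so the higher share in DOX- was not seen at equal length.

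Recurrence followed fold enrichment. In the lowest class of fold enrichment, 19.6% of the peaks without H3K4me3 were found in shStat3, 26.6% in DOX- and 23.8% in DOX+, and in the sixth class, from 4.77 to 5.60, the shares were 48.6%, 65.7% and 60.0%. In the eighth class all 19 were found in shStat3 and in DOX+ and 94.7% in DOX-, and all 11 of the ninth class were found in every list. Averaged within the classes, the peaks without H3K4me3 were found less often than the others by 34.0 points in shStat3, 39.5 in DOX- and 28.2 in DOX+. Within classes of both fold enrichment and width the differences shrank to 23.6, 33.6 and 18.1 points.

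**Figure D1:**
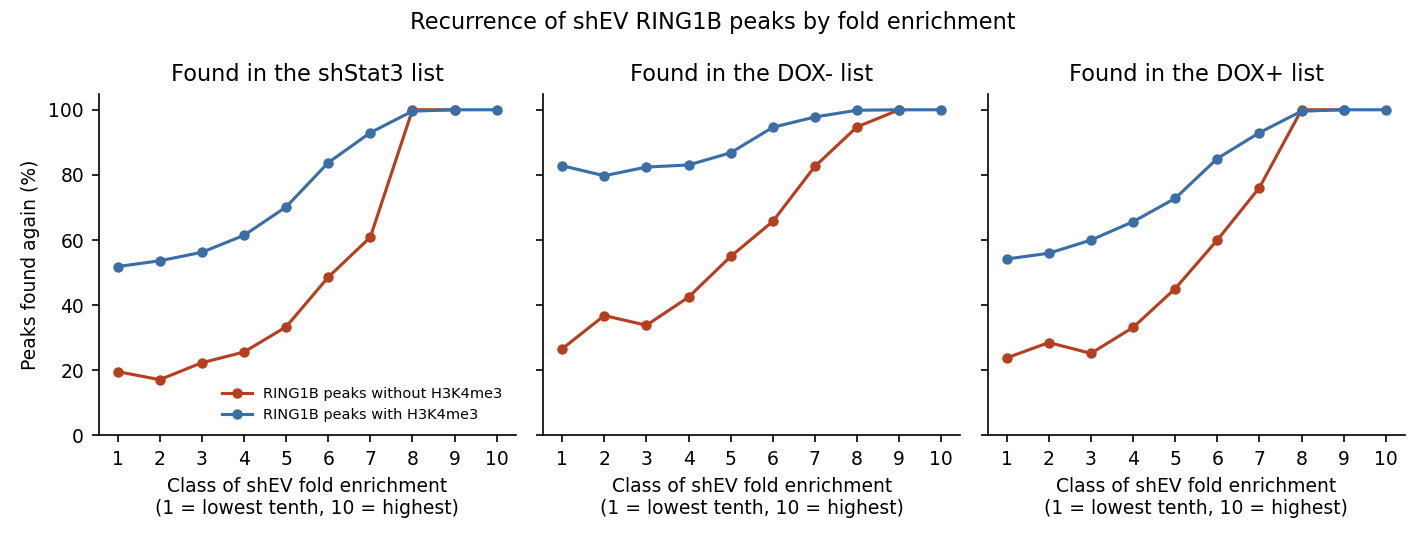
The 3 plots show the percentage of shEV RING1B peaks found again in the shStat3, DOX- and DOX+ lists (vertical axis) by class of shEV fold enrichment (horizontal axis, 10 classes of equal size), in red for peaks without and in blue for peaks with H3K4me3. The red points lie below the blue ones up to the seventh class. In the eighth they are level with them except for DOX-, at 94.7% against 99.9%, in the ninth all are at 100%, and the tenth class has no red point.

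Overlap could arise in 2 ways, and they were separated. A peak of the other list could itself be free of H3K4me3, or it could be a wide domain that reached H3K4me3 and covered the region. In shStat3, 215 peaks (21.7%) met a peak of the first kind, with a median width of 606 bp, and 84 (8.48%) met only the second kind, with a median width of 9868 bp. In DOX- the numbers were 339 (34.2%) and 115 (11.6%), and in DOX+ they were 275 (27.8%) and 107 (10.8%). The regions that were met only by wide domains lay close to RING1B peaks with H3K4me3 in shEV, at a median of 768.5 to 813 bp in the 3 lists, against 23306 to 26890 bp for those with a peak of their own. Counting only peaks free of H3K4me3, 12.0% of the regions were found in all 3 lists. In these the median fold enrichment was 4.78 in shEV, 4.91 in shStat3, 6.31 in DOX- and 5.50 in DOX+. By rank within each list the order of shEV and shStat3 was the other way, with median percentiles of 50.3 in shEV, 45.2 in shStat3, 59.7 in DOX- and 55.6 in DOX+. The same rule applied to the other lists gave 518 peaks in shStat3 (4.31% of the list), 1542 in DOX- (9.06%) and 961 in DOX+ (7.47%). Of these, 41.3%, 21.5% and 28.1% overlapped one of the 990.

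**Figure D2:**
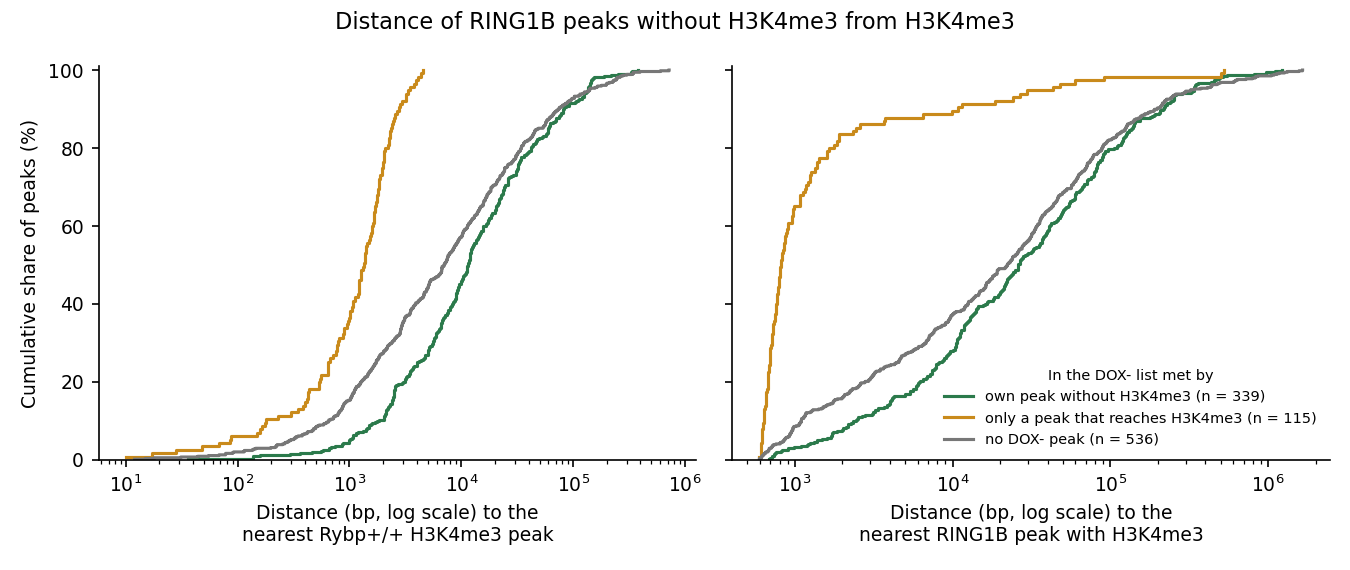
Cumulative percentage of the RING1B peaks without H3K4me3 (vertical axis) by distance in bp, on a log axis, to the nearest Rybp+/+ H3K4me3 peak (left) and to the nearest shEV RING1B peak with H3K4me3 (right), for the 339 met in DOX- by a peak free of H3K4me3 (green), the 115 met only by a peak that reaches H3K4me3 (orange) and the 536 met by none (grey). The orange curve rises at short distances on both sides, while the green and grey curves spread over several orders of magnitude.

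The 10 strongest peaks present in all 4 lists included promoters of germ cell genes and regions beside developmental regulators. The peak at Prr19 had a fold enrichment of 17.7 in shEV, 13.3 in shStat3, 16.2 in DOX- and 15.7 in DOX+. The peak at Zar1, a maternal-effect gene of the oocyte, gave 16.6, 11.4, 10.2 and 12.8 in the same order. A peak at the pseudogene Gm15847, 6284 bp from Slc10a4, gave 16.8, 11.7, 13.9 and 11.9. The Zar1 and Gm15847 peaks share 535 of their 31-base words (40.5% and 42.3% of each), so reads could be split between them. Spo11 gave 13.7, 9.33, 15.9 and 14.8, and Hormad1 gave 13.0, 9.84, 21.7 and 9.82. In shEV the order of these 5 ran from Prr19 down to Hormad1, and in DOX- the Hormad1 peak was the strongest of the 5. The intergenic peaks near Cacna1e, a calcium channel gene, gave 14.9, 15.7, 22.0 and 16.2, and those near Syt10, a synaptotagmin gene, 12.9, 14.3, 12.7 and 16.9. The Syt10 peak shares 148 of its 31-base words (31.0%) with the region at Gm7292, so reads could be split there too. Esx1, an X-linked homeobox gene of the placenta, was the nearest protein-coding gene of a peak at the pseudogene Gm5761, with 12.1, 9.22, 12.5 and 10.2. At Pax3, a regulator of neural crest and muscle, the values were 14.0, 31.4, 44.1 and 32.2, and at Tbx15 they were 11.8, 24.1, 37.9 and 27.1. These last 2 were covered in the other 3 lists by peaks that reached H3K4me3, whose fold enrichment is that of the whole domain, and the other 8 were met by peaks free of it.

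**Figure D3:**
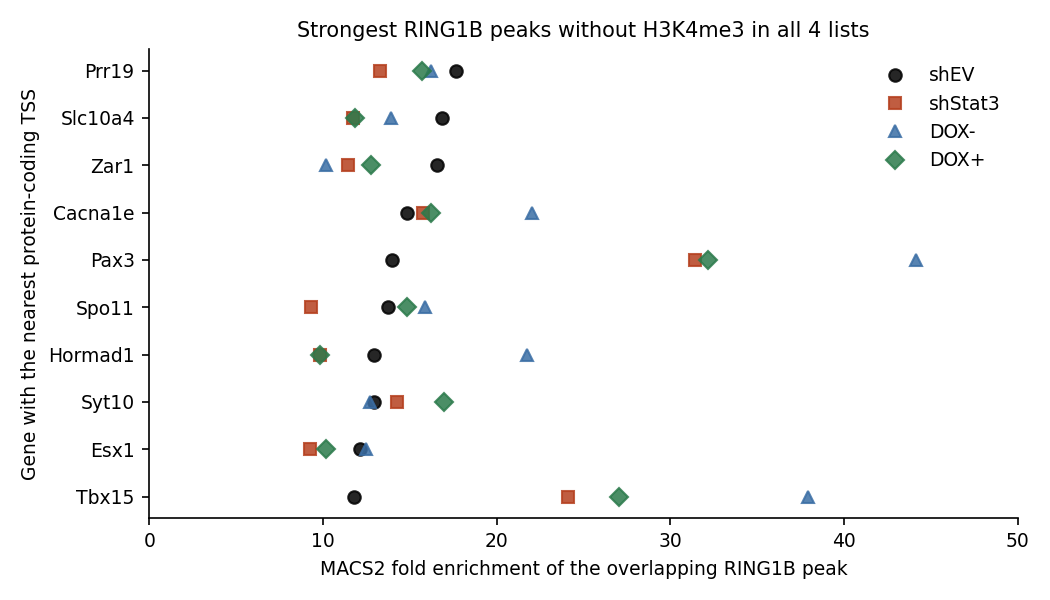
Fold enrichment of the overlapping RING1B peak (horizontal axis, MACS2, over input) in shEV, shStat3, DOX- and DOX+ for the 10 strongest regions found in all 4 lists, named by the nearest protein-coding TSS (vertical axis). The Pax3 and Tbx15 regions stand at 24.1 to 44.1 outside shEV, where wide domains cover them.

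The strongest peaks found in shEV only were much weaker, at 6.73 near Tsc22d3, 5.92 near Lrrc38, 5.64 in an exon of Lipo2, 5.58 near Nbea and 5.53 at 71002 bp from Otx2. Only the one 14154 bp from Lrrc38 and the one in Lipo2 lay under 20 kb from a protein-coding TSS.

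Sequence copies were concentrated among the peaks of shEV alone. In all, 26 of the 990 peaks (2.63%) shared at least 100 words of 31 bases with another of them. They formed 4 families, the largest with 20 peaks on 10 chromosomes, of which 19 were in shEV only and 0 in all 4 lists. The 20 had a median fold enrichment of 3.69 and lay at a median of 160452.5 bp from H3K4me3. The peak near Nbea named above was among these 20, and shared 183 words with the one near Pot1a. Reads of such copies cannot be placed with certainty.

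Marks of active chromatin were sparse at these regions. H3K27ac in Rybp+/+ ESCs overlapped 113 of 990 (11.4%, 9.58 to 13.5) against 55.3% of the RING1B peaks with H3K4me3, a difference of −43.9 points (−45.9 to −41.6). WDR5 overlapped 14 (1.41%, 0.844 to 2.36) against 54.5%, a difference of −53.1 points (−54.1 to −51.8). In Rybp-/- ESCs the shares were 16.2% for H3K27ac and 1.52% for WDR5, against 61.4% and 58.4% of the RING1B peaks with H3K4me3. The Rybp-/- lists were also longer, with 62669 against 57642 peaks for H3K27ac and 12946 against 11965 for WDR5. H3K4me3 of Rybp-/- ESCs, the mark the rule used measured in the other genotype, reached 186 (18.8%), with a median fold enrichment of 3.75 there. None of H3K27ac, WDR5 or Rybp-/- H3K4me3 overlapped 675 of the peaks (68.2%).

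The regions with H3K27ac were found again less often. Of the 113, 5.31% were in all 3 other lists against 22.8% of the 877 without it, which was higher by 17.5 points (11.1 to 21.6). Their median RING1B fold enrichment was 3.84 against 3.88, and within 5 classes of fold enrichment the share with minus that without H3K27ac was −16.6 points. H3K27ac was present at 15.8% of the peaks in shEV only, 10.2% and 11.4% of those in 1 and 2 other lists and 2.91% of those in all 3. Regions with a TSS went the other way, with 47.0% in all 3 lists against 18.9%, a difference of 28.0 points (16.2 to 40.1), or 17.3 points within classes of fold enrichment. Regions within 10 kb of a RING1B peak with H3K4me3 were in all 3 lists in 28.4% of cases against 15.7%. That direction turned when peaks reaching H3K4me3 were left out. Counting only peaks free of H3K4me3, a choice made after seeing the data, the shares were 7.54% within 10 kb against 15.0% beyond, a difference of −7.50 points (−11.3 to −3.48). Counted so, regions with H3K27ac were found in 4.42% of cases against 13.0% (−8.57 points, −12.1 to −2.68) and regions with a TSS in 39.4% against 10.1% (29.3 points, 18.2 to 41.5).

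STAT3 met these regions mostly in the list with DOX. It overlapped 3 of 990 (0.303%) in Rybp+/+ ESCs, 2 in Rybp-/- ESCs, 1 (0.101%) in DOX- and 363 (36.7%, 33.7 to 39.7) in DOX+. Of the RING1B peaks with H3K4me3, the DOX+ list met 90.2% and the DOX- list 11.8%. The STAT3 list itself grew from 2816 peaks in DOX- to 30663 in DOX+, and the part of list size in this difference was not tested. Among regions in shEV only, 25.8% met STAT3 in DOX+, against 53.1% of those in 2 other lists and 41.3% of those in all 3.

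**Figure D4:**
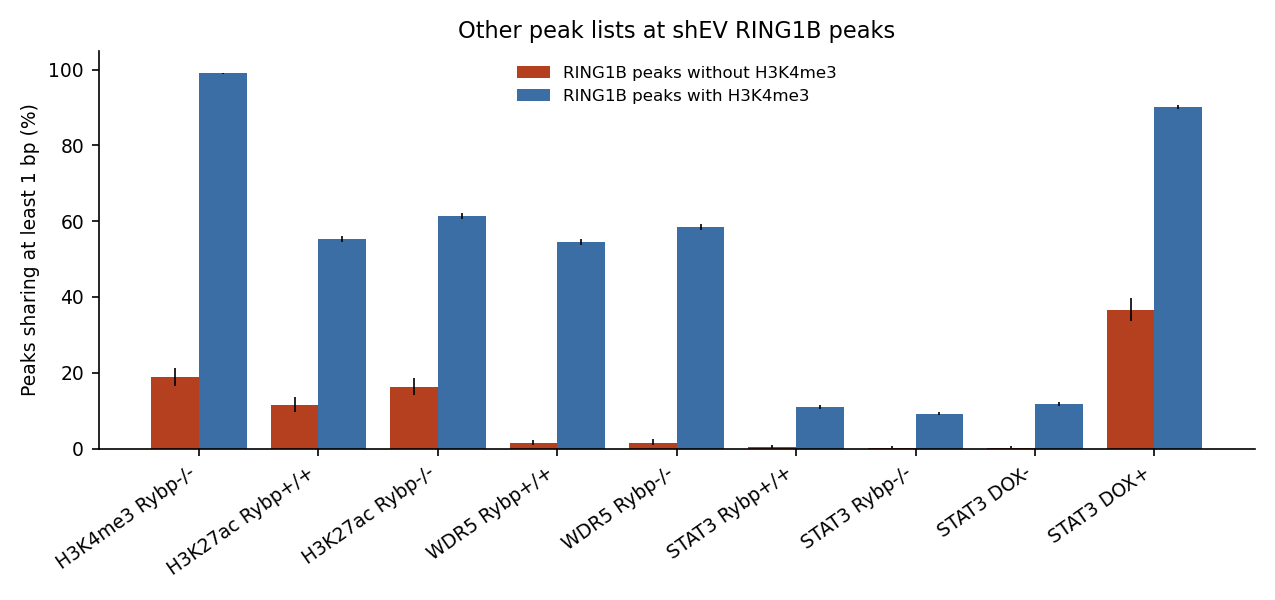
Percentage of shEV RING1B peaks that share at least 1 bp with each other peak list (vertical axis, bars from 0, error bars Wilson 95% intervals), in red for the 990 peaks without and in blue for the 13418 with Rybp+/+ H3K4me3. The red bars are the lower ones for every list, and DOX+ STAT3, at 36.7%, is the highest of them.

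Short words for known DNA-binding factors were counted in the 300 bases around the middle of each peak, on both strands. The E-box CACGTG, which is its own reverse complement, was in 13.4% of the regions and in 8.88% of the RING1B peaks with H3K4me3, a difference of 4.55 points (2.51 to 6.87), and in 7.79% of all 22350 protein-coding promoters in windows of the same length. The T-box word AGGTGTGA was in 2.83% against 0.909%, and in 1.11% of promoters. The E2F word GCGGGAA was rarer, in 3.54% against 9.28%, and in 5.59% of promoters. The STAT3 word TTCCNGGAA was in 17 regions (1.72%) against 0.835%, in 1.15% of promoters, and in 0 of the 206 regions of all 4 lists, which allows up to 1.83%. Regions that met STAT3 in DOX+ held the E-box in 19.3% against 10.0% of those that did not, a difference of 9.24 points (4.69 to 14.1), and the STAT3 word in 1.65% against 1.75%. These words were not tested for binding. Of the regions with a TSS, E-boxes stood in 16.7% against 8.45% of RING1B peaks with H3K4me3 and a TSS (8.22 points, 1.10 to 19.0). The 2 stretches below show promoters of this kind with the E-box in capitals, Tdrd9 (chr12:113209549-113209769), which encodes a helicase of the piRNA pathway, and Trpm1 (chr7:71330083-71330266), a channel gene of retina and melanocytes, both on the plus strand of mm9 without exons.
Tdrd9: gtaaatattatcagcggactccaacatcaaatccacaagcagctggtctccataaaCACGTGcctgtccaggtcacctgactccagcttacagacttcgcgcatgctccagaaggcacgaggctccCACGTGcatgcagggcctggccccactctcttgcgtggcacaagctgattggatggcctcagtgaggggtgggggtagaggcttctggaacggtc
Trpm1: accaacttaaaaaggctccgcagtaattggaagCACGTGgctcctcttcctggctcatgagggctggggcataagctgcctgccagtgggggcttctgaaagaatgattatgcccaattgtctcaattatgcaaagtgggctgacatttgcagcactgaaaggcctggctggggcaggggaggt
The Tdrd9 stretch held 2 E-boxes and the Trpm1 stretch 1. Both were picked because they hold the word. Of the other germline genes that start in a region, Hormad1 held 1 E-box in its window. Spo11, Hormad2, Piwil1, Piwil4 and Tex101 held 0. The T-box and E2F words were in none of these germline windows, that of Tdrd9 included.

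The genes that start inside these regions were few, and germline genes were among them. The 66 regions with a TSS held the start of 68 genes, 51 of them protein-coding, or 0.228% of the 22350 annotated. Of 42 germline and meiotic genes on the list used here, 7 (16.7%, 8.32 to 30.6) started in such a region, namely Hormad1 and Hormad2 (meiotic chromosome axis), Spo11, Piwil1 and Piwil4 (PIWI proteins of the piRNA pathway), Tdrd9 and Tex101 (a germ cell surface protein). The list was chosen with earlier results of these data known, so this share is a description and not independent evidence. Another 29 of the 42 started in a RING1B peak with H3K4me3. So did 8790 (39.3%) of all protein-coding genes, not counting those that also start in a region without it. The shEV fold enrichment of the 7 ran from 4.06 at Tex101 to 13.7 at Spo11, and all of them but Piwil4, which DOX- alone of the other lists held, were in all 4 RING1B lists by peaks free of H3K4me3. Of 39 Hox genes, Hoxc4 had a start in a region without H3K4me3 and another in a RING1B peak with it. The other 38 started in a RING1B peak with H3K4me3. A second, overlapping gene record named Hoxa3 also started in a region without H3K4me3. None of the 89 developmental transcription factors on the list did, while all 89 started in a RING1B peak with H3K4me3. The list is not complete, since Nkx2-6, a homeobox gene of heart and pharynx that is not on it and was picked out after its values were seen, started in a region with a fold enrichment of 3.87 in shEV. No start in a region was also the result for 39 signalling genes, 35 PRC1 and PRC2 subunits and 21 pluripotency genes. Of 29 imprinted genes, Grb10 had a start in one, and another of its starts lay in a RING1B peak with H3K4me3. In all, 14 of the 68 genes had another start in an H3K4me3 peak, among them Tnfrsf1a, Grb10, Hoxa3, Hoxc4, Nckap5, Klhl35, Synpo, Gnao1, Fancc, Dlg2 and Spo11, and gene counts do not separate the starts.

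RNA-seq put these genes lower in expression than genes that start in a RING1B peak with H3K4me3, but their median was not below that of all genes. More of them were higher than lower after loss of RYBP. In shEV ESCs 47 of the 68 genes (69.1%) were under 1 TPM, and 53 (77.9%) were in Rybp+/+ ESCs. Among genes that start in a RING1B peak with H3K4me3 the shares were 30.4% and 32.7%. Over all 37620 genes counted they were 63.2% and 64.4%. Median TPM in these controls was 0.17 and 0.11 for the 68, against 0.11 and 0.086 over all genes. Genes were tested with edgeR's quasi-likelihood test at a Benjamini-Hochberg adjusted p under 0.05 over all genes. A library held 38961268 to 81049618 counts in genes, 8 of 8 ESC markers were above 1 TPM in the controls of each comparison, and Rybp fell from 85.7 and 86.3 to 35.8 and 36.5 CPM (counts scaled to library size) in the knockdown and from 110.4 and 110.6 to 24.8 and 24.9 in Rybp-/- ESCs. In the rTRS libraries labelled DOX it was 102.0 and 99.5 against 113.5 and 110.3 CPM, so Rybp RNA was not higher there, while Stat3, the other gene the labels give as inducible, was 191.4 and 188.0 against 158.9 and 172.2 CPM (log2 fold change 0.20 ± 0.06, edgeR adjusted p = 0.026). These are called the libraries labelled DOX. Of 6 fibroblast markers, which served as a check of other cell types, 2 to 4 were above 1 TPM in controls, and their summed level was higher after loss of RYBP, at 36.9 to 38.2 against 19.5 TPM in the knockdown and 57.1 to 60.4 against 27.5 to 29.4 TPM in the knockout. Dcn was at 0 in all 4 knockdown libraries. The part of these markers in the results was not tested, and in bulk RNA fewer cells of a type and less RNA per cell cannot be told apart.

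After Rybp knockdown, 19 of the 38 genes tested rose and 3 fell, beside 26.8% higher and 26% lower among all 16538 genes tested. The median log2 fold change was 0.80 against 0.02 over all genes. Among other genes of the same expression, 30.1% were higher and 11.5% lower. Of the 28 genes tested that had no other start in H3K4me3, 13 rose and 2 fell. Tdrd9 rose from 1.49 and 1.68 to 4.50 and 5.36 CPM, a log2 fold change of 1.63 ± 0.22 (SE, edgeR adjusted p = 5.13e-06). Tnfrsf1a, the TNF receptor, rose from 3.74 and 4.35 to 11.9 and 12.3 CPM (1.58 ± 0.14). The libraries of the 2 groups did not overlap for either gene. Tex101 rose from 0.784 and 0.923 to 2.58 and 2.25 CPM (1.50 ± 0.31), and Mmrn2, an endothelial matrix gene, from 38.1 and 39.6 to 92.8 and 93.3 CPM (1.26 ± 0.06). Hormad1 rose from 6.00 and 6.52 to 11.4 and 12.0 CPM (0.91 ± 0.13), and Prr19 from 3.11 and 4.07 to 6.22 and 7.39 CPM (0.92 ± 0.18). Hoxa3 (1.25 ± 0.44), Nckap5 (1.10 ± 0.25), Hoxc4 (1.04 ± 0.41), Trpm1 (0.94 ± 0.35) and Hormad2 (0.35 ± 0.12) were also called higher. Counts of Hoxa3 may be split between its 2 overlapping records. Its call rests on 19 and 19 against 58 and 60 reads and was not followed through the alternative fits. Of the 3 that fell, Grb10, an adaptor of insulin receptor signalling, went from 163.6 and 176.3 to 90.1 and 93.2 CPM (−0.89 ± 0.05), Morc1, a silencer of transposons in the male germline, from 84.8 and 84.6 to 62.8 and 59.7 CPM (−0.47 ± 0.06), and Gm10169 from 7.46 and 7.74 to 5.28 and 5.27 CPM. Piwil1 (−0.45 ± 0.26) and Piwil4 (0.03 ± 0.27) did not pass the test. Of the whole germline list, 20 of 40 genes tested were higher and 4 lower. Hoxc4 at an adjusted p of 0.093, Trpm1 at 0.077 and Hormad2 at 0.073 were not called by DESeq2, and each lost its call without shRybp replicate 2 (adjusted p of 0.226, 0.107 and 0.133) and without 1 or 2 of the other libraries. Without shRybp replicate 1, and also without replicate 2, 13 genes were called, 10 of them higher.

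In Rybp-/- ESCs, 14 of 37 genes tested rose and 3 fell, beside 22.8% higher and 22.7% lower among all 16955 genes. The median log2 fold change was 0.72 against 0.00 over all genes, and other genes of the same expression were higher in 20.5% and lower in 11.1% of cases. Of the 26 genes tested that had no other start in H3K4me3, 11 rose, and each of the 3 that fell had another start there. Trpm1 rose from 1.23 and 1.05 to 6.69 and 7.40 CPM, a log2 fold change of 2.63 ± 0.16 (edgeR adjusted p = 6.84e-15). Hormad2 rose from 0.954 and 0.761 to 3.31 and 3.20 CPM (1.93 ± 0.22). The groups did not overlap for either. Tnfrsf1a (1.38 ± 0.12) rose here too, as did Cntfr, a receptor subunit for ciliary neurotrophic factor (0.95 ± 0.16), Synpo, an actin-binding protein gene (0.91 ± 0.12), and Prr19 (0.64 ± 0.20). Tex101 (2.22 ± 0.45), Tdrd9 (1.46 ± 0.54) and Piwil1 (1.23 ± 0.49) rose from levels under 0.3 CPM. With the replicate number as a block Piwil1 was at an adjusted p of 0.051, and DESeq2 called neither Piwil1 (adjusted p = 0.066) nor Gnao1 (0.125). Gnao1 (−0.43 ± 0.18), Fancc, a Fanconi anaemia gene (−0.35 ± 0.08), and Dlg2 (−2.43 ± 0.79) fell. Dlg2 was near the floor, with 22 and 24 reads in Rybp+/+ and 2 and 6 in Rybp-/- ESCs. It was not followed through the alternative fits. Hormad1 had 4.92 and 4.54 CPM in Rybp+/+ and 5.05 and 6.13 CPM in Rybp-/- ESCs (0.25 ± 0.13, adjusted p = 0.134). Of the germline list, 26 of 40 genes tested were higher and 8 lower. Gnao1 was not called by edgeR without Rybp+/+ replicate 1 (adjusted p = 0.387) or Rybp-/- replicate 1 (0.245), nor was Prr19 without Rybp-/- replicate 2 (0.112). Tdrd9 lost its call without Rybp+/+ replicate 2 (0.154) or either Rybp-/- library (0.113 and 0.108), and Piwil1 without any 1 library (0.082 to 0.263). Without Rybp-/- replicate 1, 10 genes were called, and without replicate 2, 11.

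In the rTRS libraries labelled DOX, 5 of 36 genes tested were higher and 6 lower, beside 23% higher and 20.4% lower among all 16291 genes. The median log2 fold change was −0.20, and among other genes of the same expression 18.0% were higher and 13.8% lower, so the counts lay near the background. Morc1 fell from 65.8 and 62.3 to 17.8 and 18.4 CPM (−1.82 ± 0.08, edgeR adjusted p = 4.6e-09). Hormad1 fell from 6.85 and 6.91 to 2.53 and 3.06 CPM (−1.30 ± 0.18), Piwil4 from 2.56 and 1.32 to 0.752 and 0.411 CPM (−1.73 ± 0.45), Mmrn2 from 21.2 and 18.5 to 7.70 and 7.31 CPM (−1.40 ± 0.12) and Hormad2 from 8.30 and 6.30 to 5.05 and 4.84 CPM (−0.56 ± 0.18). C920025E04Rik (2.70 ± 0.50), Cntfr (0.95 ± 0.14) and Gnao1 (0.50 ± 0.15) rose. In edgeR, Piwil4 lost its call without NTC replicate 1 (adjusted p = 0.111), Hormad2 also without NTC replicate 1 (0.202), and Gnao1 without NTC replicate 2 (0.100) or DOX replicate 1 (0.077). Of the germline list, 2 of 40 genes tested were higher and 25 lower. The summed level of ESC markers was 3423 to 3450 TPM in the libraries labelled DOX and 6152 to 6266 TPM in those labelled NTC, and its part in these results was not tested.

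Several of the strongest regions stood at genes with hardly any RNA in any library. Zar1 had 0 to 9 reads and Spo11 0 to 16 in the libraries of the 3 comparisons, and neither passed the filter on low counts. Of genes that start within 2.5 kb of a region, 70 of 148 tested (47.3%) were higher and 14 (9.46%) lower in the knockdown, where 30.5% and 14.0% of other genes of the same expression were. In the knockout 56 of 140 (40.0%) were higher and 13 (9.29%) lower, against 22.8% and 14.7%. In rTRS 37 of 139 (26.6%) were higher and 20 (14.4%) lower, against 20.4% and 15.3%, near the 23% and 20.4% over all genes.

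**Figure D5:**
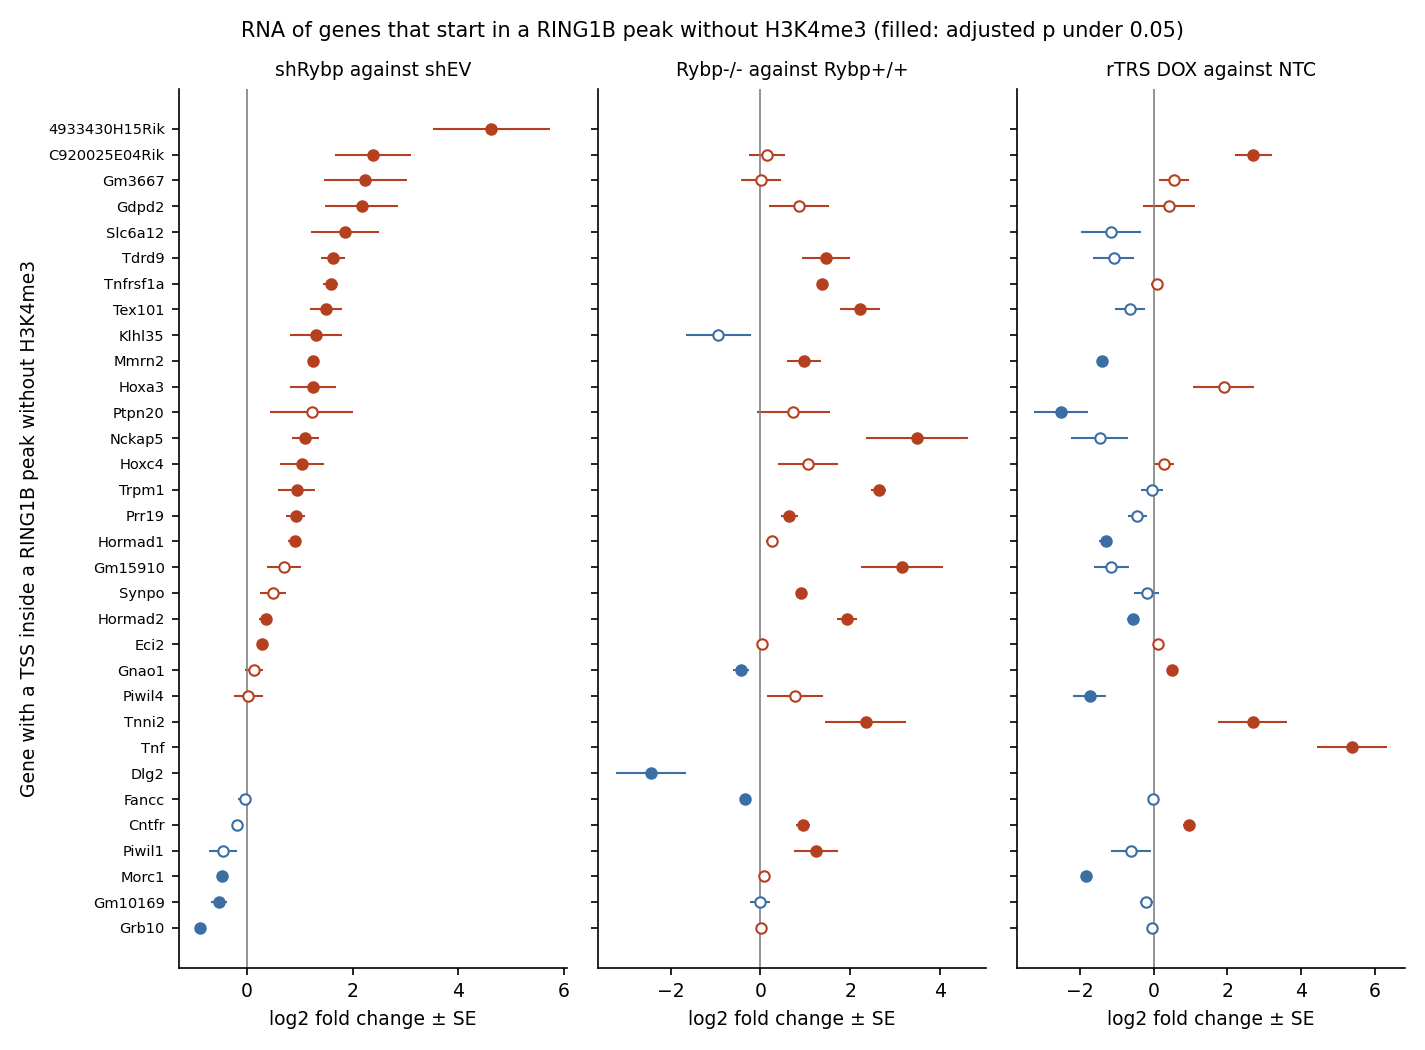
Log2 fold change ± SE (horizontal axis, edgeR) of 32 genes that start in a RING1B peak without H3K4me3 and passed the test in at least 1 comparison (vertical axis), for Rybp knockdown, Rybp-/- and rTRS libraries labelled DOX, with filled points for adjusted p under 0.05, red above 0 and blue below. Filled points lie mostly right of 0 in the first 2 plots, at 18 of 21 and 13 of 16 points drawn, and on both sides in the third, at 5 of 11.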

How the data were processed

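RING1B, H3K4me3, H3K27ac, WDR5 and STAT3 peak lists and 3 RNA-seq count tables of mouse ESCs were used. The authors called peaks with MACS2 against input and deposited them with a fold enrichment (a ratio) and a −log10 q for each peak, on mm9, with 2 replicates merged before calling where there were 2. The lowest −log10 q of the RING1B lists was 1.01 to 1.04, so the lists hold peaks with q above the FDR of 0.01 (−log10 q of 2) given in the methods, and ChIP depth is not known from the lists. The authors deposited HTSeq counts of STAR alignments, after Trim Galore, per the labels, and 13.7 to 26.5% of the reads in these tables were in rows that name no gene, which were left out.

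The regions and the gene lists were chosen with earlier results of these data known. Overlap meant at least 1 shared bp. Genes were from GENCODE vM1 on NCBIM37, and sequences from that genome. No test was run between peak lists. Intervals are Wilson (shares) and Newcombe (differences) at 95%. RNA was tested with edgeR 4.0.16 (TMM, filterByExpr, quasi-likelihood, Benjamini-Hochberg 0.05), checked on simulated data, in R 4.3.3, and DESeq2 1.42.0, no filter, a replicate block and leaving out each library were alternatives. TPM used summed exon lengths. The regions named were the 10 strongest in all 4 lists, the 5 strongest in shEV only, and the 5 nearest to the limit on each side. The genes named were the 10 with the largest change at 1 CPM or more among those called in each comparison, and every list gene that starts in a region. Values of list genes that were not called are not given for every comparison. Morc1 and Gm10169 in the knockdown and Dlg2 in the knockout were named outside this rule, as genes that fell. Fold changes of genes near 0 counts depend on the prior count. Nothing states that replicates were separate cultures, so p-values measure only the spread between these libraries. Replicate libraries differed beyond counting noise (chi-square per degree of freedom 4.30 to 13.1). The correlation of same-numbered libraries was 0.031 in the knockdown, −6.25e-05 in the knockout and 0.201 in rTRS, and no source says that numbers mark a shared batch, so with 2 pairs they were not taken as pairs. Columns of samples that were not used numbered 0. A gene that the naming rule covers is not reported here by name and is not drawn, but stays in the counts.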

Additional observations from a re-analysis of the deposited data

Results flagged for a closer look

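For 5 of the genes that start in a RING1B peak without H3K4me3 and were tested in both comparisons, every library moved one way after Rybp knockdown and the other way in Rybp-/- ESCs. The difference between the 2 comparisons, which are in different lines, was not tested. The share of all genes that split in this way was not counted, so the 5 are not a result about these regions. Cntfr had a log2 fold change of −0.18 in the knockdown and 0.95 in the knockout. Piwil1 had −0.45 and 1.23, and Morc1 had −0.47 and 0.082. Klhl35 had 1.30 and −0.94, and 1700018B08Rik had 0.70 and −1.78. The last value rests on few reads, 11 and 11 in Rybp+/+ against 2 and 4 in Rybp-/- ESCs. Of these 10 values, the knockdown values of Morc1 and Klhl35 and the knockout values of Cntfr and Piwil1 passed the test.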

How the results depend on the processing

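All peaks here come from 1 list per condition, so the limits below are those of thresholds. With RING1B peaks of −log10 q of at least 5, 165 regions remained, found in 67.9% (shStat3), 80.6% (DOX-), 73.9% (DOX+) and 55.8% (all 3), with H3K27ac at 8.48% and WDR5 at 3.64%. With at least 2, a limit chosen after seeing the data, the shares were 34.6%, 51.6%, 43.7% and 25.0%. Counting only peaks that did not reach H3K4me3 (also chosen afterwards), they were 21.7%, 34.2%, 27.8% and 12.0%, and with at least 50% of the region covered 25.6%, 40.8%, 33.5% and 17.0%. At equal list length they were 29.1% in DOX-, 35.5% in DOX+ and 18.0% in all 3. The differences from RING1B peaks with H3K4me3 were −34.0 (shStat3), −39.5 (DOX-) and −28.2 points (DOX+) within classes of fold enrichment, and −23.6, −33.6 and −18.1 points with width added. Using a TSS within 2.5 kb, 22.3% of regions had one, and 84 (knockdown), 69 (knockout) and 57 (rTRS) genes were called. Leaving out 1 library gave 13 to 21, 10 to 12 and 8 to 12 genes called. DESeq2 called 15, 12 and 10, and edgeR with no filter on low counts 22, 13 and 11, against 22, 17 and 11.

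Among named genes that were no call, the log2 fold change turned when 1 library was left out, and the cause was not tested. Over the libraries left out, Piwil4 in the knockdown ran from −0.21 (without shEV replicate 2; −0.0099 without shRybp replicate 2) to 0.296, Grb10 in the knockout reached −0.0148 (without Rybp+/+ replicate 1), Grb10 in rTRS ran from −0.0913 to 0.0263 (without NTC replicate 2; 0.0052 without DOX replicate 1), and Piwil1 in rTRS from −1.71 (without DOX replicate 1, adjusted p = 0.039) to 0.0106 (without the DOX library tied to its group only). With the replicate block, 22, 16 and 11 genes were called. Of the named genes followed through the alternative fits, Piwil1 in the knockout (1.22, edgeR adjusted p = 0.051) was the one that lost its call. Hoxa3, Morc1, Gm10169 and Klhl35 in the knockdown and Dlg2 in the knockout were not followed. For rTRS the block used the number in the column names, where 1 DOX column has a prefix that no label explains.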
